A study of Homo sapiens with 17 samples.

Results

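L1PA2 is a subfamily of the LINE-1 (L1) retrotransposons of the human genome, and the regions described here are its full-length copies. They were chosen as the loci of the deposited repeat table whose subfamily name is exactly L1PA2 and whose length is over 5900 bases, with no use of a measured value. The rule found 1031 copies among 4750 L1PA2 loci and 3594049 repeat loci of the table. A total of 1030 passed the filter on low counts, and the copy that did not, at chr19:28756882-28762969, had 68.7 reads in all 17 libraries together.

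A full-length L1 carries its own promoter in its 5′ untranslated region and 2 open reading frames. The first encodes ORF1p, an RNA-binding protein that coats the L1 RNA, and the second encodes ORF2p, which has endonuclease and reverse transcriptase activities. Both proteins are known to bind preferentially the RNA that encoded them. L1HS, the human-specific subfamily that still moves, is younger than L1PA2, and L1PA3 is older than L1PA2. Embryonal carcinoma cells are known for high L1 expression.

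RNA that came down with each L1 protein in N2102Ep cells, an established human embryonal carcinoma line, was sequenced by RNA immunoprecipitation (RIP-seq) and set against a mock precipitation and total RNA. The groups were 4 libraries of ORF1p RIP, 4 of ORF2p RIP, 3 of mock IP, whose descriptions carry the term mIgG, and 6 of total RNA. The labels name no drug, genotype change or time. All groups are of the same line, and the labels add clone 2/A6 for all groups except ORF1p RIP, whose clone they do not name. In the descriptions ORF2p RIP and the total RNA libraries tagged bl carry the same sample numbers, while ORF1p RIP, mock IP and the total RNA libraries tagged b carry numbers that do not repeat. No source used here names the sequencing runs, and their part in the differences was not tested. The total RNA libraries carry 2 tags in their descriptions, b for replicates 1 and 2 and bl for replicates 3 to 6, and no source used here says what the tags stand for.

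The libraries held 7693847 to 19670786 reads over all subfamily rows after rounding, of which 42796 to 465735 fell on the full-length L1PA2 copies. Estimated counts are not whole where a read was divided among loci, and 0.485% to 1.46% of the copies' values above 0 were whole (within 1e-06 of a whole number), against 68.6% to 86.2% of the values above 0 over all loci. The rule by which reads that fit more than 1 copy were divided is not known here, so a value at 1 copy can include reads from its relatives. The table holds no genes, so the line was checked through repeats only. HERVH-int, an endogenous retrovirus known for expression in pluripotent cells, ranked 1 of all subfamily rows by mean level in each of the 4 groups. LTR7, the other repeat examined for this check, ranked 97 in ORF1p RIP, 47 in ORF2p RIP, 12 in mock IP and 48 in total RNA. ORF1p RIP replicate 3 stood apart from the other ORF1p RIP libraries by its summed level, so the main ORF1p RIP counts and changes are also given without it. The labels do not say that replicates came from separate cultures, so p-values measure only how much these libraries vary, and that variation may be technical.

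The copies were alike in length and spread over the genome. They were 5904 to 8071 bases long with a median of 6025 bases, 513 lay on the plus strand and 518 on the minus strand, and 1016 were above 0 in every library. Chromosome 2 held the most copies, 95, and chromosome 19 the fewest, 5. The locus names carry a divergence value, whose unit the file does not give, and it ran from 5 to 102 with a median of 24. By the gene spans of RefSeq (GRCh38.p14), which hold no exons here, 503 copies touched a gene span, 470 of them wholly inside 1, and 528 touched none. Of those in or across a gene, 100 ran on the gene's strand, 224 on the opposite strand and 15 had genes on both strands. For 164 the strand of the gene was not known from the tables used here.

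The first question was whether RNA of these copies came down with each L1 protein above the mock precipitation. In both precipitations its level was far above the mock IP level in every library. Summed over the copies, the level was 17546, 17132, 50845 and 20485 CPM (repeat reads scaled to a common library total, with edgeR's TMM factors) in the 4 ORF1p RIP libraries. It was 35662, 36027, 31602 and 31518 CPM in the ORF2p RIP libraries, 4357, 4059 and 3731 CPM in the mock IP libraries, and 2449, 2125, 7240, 4563, 4377 and 5658 CPM in the total RNA libraries. Every library of either RIP was above every library of mock IP and total RNA, and the highest ORF1p RIP library was replicate 3. The copies took 1.76% to 4.52% of all repeat reads in ORF1p RIP, 2.68% to 2.99% in ORF2p RIP, 0.385% to 0.435% in mock IP and 0.253% to 0.751% in total RNA.

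**Figure D1:**
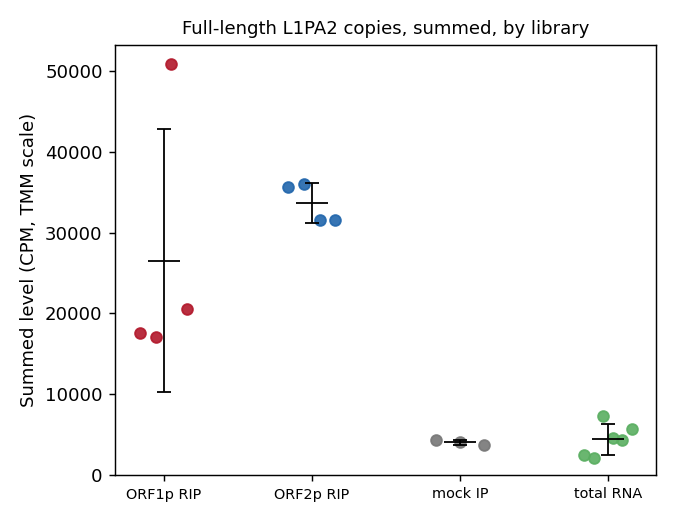
Summed level of the full-length L1PA2 copies (CPM on the TMM scale, linear axis from 0) in each library of the ORF1p RIP, the ORF2p RIP, the mock IP and total RNA; points are libraries, and bars are means with SD. The ORF1p RIP libraries lie between 17132 and 50845 CPM and the ORF2p RIP libraries between 31518 and 36027 CPM, above all mock IP libraries (3731 to 4357 CPM) and all total RNA libraries (2125 to 7240 CPM).

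The summed level averaged 26502 ± 16297 CPM in ORF1p RIP (SD, n = 4; 18388 ± 1828 CPM over the 3 libraries without replicate 3) and 4049 ± 313 CPM in mock IP (SD, n = 3), a log2 change of 2.71 ± 0.44 (SE) with an adjusted p of 7.78e-05 in edgeR's quasi-likelihood test. Without ORF1p RIP replicate 3 the change was 2.19, with an adjusted p of 0.00012 in the same edgeR test. In ORF2p RIP the level averaged 33702 ± 2478 CPM (SD, n = 4), a log2 change against mock IP of 3.06 ± 0.45 (SE) with an adjusted p of 8.63e-05 in the edgeR test. ORF2p RIP over ORF1p RIP gave a log2 change of 0.35 ± 0.37 (SE), which did not pass (edgeR adjusted p = 0.44). Without ORF1p RIP replicate 3 that change was 0.89 with an edgeR adjusted p of 0.0294, which is under 2-fold and so was still not called. The libraries are of pooled cells, so these levels do not show how the L1 RNA was spread over single cells.

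Set against total RNA, the summed level was also higher in both RIPs. The log2 change was 2.59 ± 0.34 (SE, edgeR adjusted p = 6.56e-06) for ORF1p RIP and 2.94 ± 0.34 (SE, edgeR adjusted p = 5.49e-06) for ORF2p RIP, while mock IP over total RNA was -0.12 ± 0.37 (SE, edgeR adjusted p = 0.822). The change of ORF1p RIP over total RNA was 2.06 without replicate 3 (edgeR adjusted p = 2.05e-05). The 6 total RNA libraries averaged 4402 ± 1932 CPM, and the tags divided them: the 2 libraries tagged b had 2125 to 2449 CPM and the 4 tagged bl 4377 to 7240 CPM. With the b libraries alone the changes over total RNA were 3.53 for ORF1p RIP, 3.88 for ORF2p RIP and 0.82 for mock IP, and with the bl libraries alone 2.28, 2.63 and -0.43. The direction of mock IP against total RNA thus differed between the tags, and in neither did that change pass the test (edgeR adjusted p = 0.283 with b and 0.203 with bl).

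Most copies were higher in ORF1p RIP than in mock IP, and nearly all were in ORF2p RIP. Calls needed both a 2-fold change and an adjusted p under 0.05, in a fit of all 381712 loci that passed the filter. In ORF1p RIP against mock IP, 873 of 1030 copies were higher and 1 was lower, while 20.6% of all loci tested were higher and 27.2% lower. The median log2 change of the copies was 2.25, against -0.08 over all loci. Without ORF1p RIP replicate 3, 743 copies were higher and 5 lower, with 19.7% of all loci higher and 25.6% lower, and the copies' median was 1.72. In ORF2p RIP against mock IP, 1006 copies were higher and 0 lower, while 8.31% of all loci were higher and 8.3% lower, and the copies' median was 3.10 against -0.31 over all loci. For that count of 0 in the edgeR test, 0 copies were lower at an unadjusted p under 0.05 and 0 were lower by DESeq2.

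Against total RNA, 852 copies were higher and 3 lower in ORF1p RIP, while 26.4% of all loci were higher and 28.9% lower. With ORF1p RIP replicate 3 left out, 725 copies were higher and 10 lower, and 25.5% of all loci were higher and 27.5% lower. In ORF2p RIP 1017 copies were higher and 0 lower, while 13.2% of all loci were higher and 13.9% lower; 0 were lower at an unadjusted p under 0.05 in the edgeR test and 0 by DESeq2. The median log2 changes of the copies over total RNA were 2.12 in ORF1p RIP (1.60 without replicate 3) and 2.94 in ORF2p RIP. Mock IP differed from total RNA at 0 copies in either direction by edgeR, while 1.09% of all loci were higher and 0.176% lower. At an unadjusted p under 0.05 in edgeR, 16 copies were higher and 22 lower in mock IP, and DESeq2 called 4 higher and 6 lower. With the bl libraries alone 8 copies were higher and 89 lower in mock IP, and with the b libraries alone 14 were higher and 0 lower. The share of all loci called was not taken with DESeq2, bl alone or b alone. These counts therefore cannot be set against the other loci.

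Few copies ran against this. The 1 copy lower in ORF1p RIP than in mock IP, at chr22:11959382-11965528 in no gene span, had 3.63, 4.62, 7.75 and 2.54 CPM in ORF1p RIP, 28.8, 26.4, 25.5 and 20.5 CPM in ORF2p RIP and 11.5, 12.5 and 15 CPM in mock IP. Its ORF1p RIP libraries were all below its mock IP libraries, and its ORF2p RIP libraries were all above them. The log2 change of ORF1p RIP over mock IP was -1.5 ± 0.46 (SE, edgeR adjusted p = 0.00847), and that of ORF2p RIP over mock IP was 0.96, which did not pass (edgeR adjusted p = 0.152). The copy at chr2:76775759-76781758 in LRRTM4, a synaptic adhesion protein gene, averaged 13.2 ± 3.93 CPM in ORF1p RIP, 58.3 ± 7.34 CPM in ORF2p RIP and 25.6 ± 4.36 CPM in mock IP. Its change of -0.95 in ORF1p RIP over mock IP had an edgeR adjusted p of 0.044 and was under 2-fold. That call depended on the setting: the change was -1.01 with library totals in place of TMM, and with a replicate block it was -0.85 and did not pass (edgeR adjusted p = 0.086). With libraries left out in turn it ran from -1.14, without ORF1p RIP replicate 3, to -0.76.

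The repeats around that LRRTM4 copy were summed over 10 kb on each side, without L1HS and L1PA loci. They had a mean of 1.94 CPM in ORF1p RIP, 273 CPM in ORF2p RIP, 164 CPM in mock IP and 218 CPM in total RNA. The reads around the copy were thus more than those at the copy in ORF2p RIP, mock IP and total RNA. The 3 copies lower in ORF1p RIP than in total RNA were the chr22 copy above and 2 that were named after their values were seen. At chr5:175397770-175403801 the means were 4.14 CPM in ORF1p RIP and 10.7 CPM in total RNA, and at chr9:82769372-82775374 they were 13.2 CPM in ORF1p RIP and 33.4 CPM in total RNA. At both, the 2 total RNA libraries tagged b overlapped the ORF1p RIP libraries. At the chr22 copy those tagged bl did so, with 5.71 to 7.05 CPM against 2.54 to 7.75 CPM in ORF1p RIP, while those tagged b had 20.8 and 19.7 CPM.

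Next, the full-length L1PA2 copies were set beside the full-length copies of the neighbouring subfamilies, 309 of L1HS and 1452 of L1PA3 that were tested. In ORF1p RIP over mock IP the median log2 change was 2.25 for L1PA2, 3.57 for L1HS and 1.83 for L1PA3, so the L1PA2 copies lay between the younger and the older subfamily. In ORF2p RIP over mock IP the medians were closer together, 3.10 for L1PA2, 3.37 for L1HS and 2.83 for L1PA3. Between the RIPs, ORF2p over ORF1p, they were 0.70 for L1PA2, -0.25 for L1HS and 0.86 for L1PA3. Leaving out ORF1p RIP replicate 3 gave medians in ORF1p RIP over mock IP of 1.72 for L1PA2, 2.98 for L1HS and 1.32 for L1PA3, in the same order. Between the RIPs they were then 1.28 for L1PA2, 0.33 for L1HS and 1.42 for L1PA3, so the sign for L1HS turned. Truncated L1PA2 copies, of which 1276 were tested, had medians of 2.03 in ORF1p RIP over mock IP and 2.78 in ORF2p RIP over mock IP. Without ORF1p RIP replicate 3 their median in ORF1p RIP over mock IP was 1.66, close to that of the full-length copies. Over total RNA the truncated copies that were tested had the higher medians. These were 2.53 against 2.12 for full-length L1PA2 in ORF1p RIP, and 3.28 against 2.94 in ORF2p RIP. Only 1276 of 3719 truncated loci passed the filter, and a locus can pass it through the RIP libraries alone. The part of the filter in these medians was not tested. Summed over all truncated loci, the log2 change over total RNA was 2.12 in ORF1p RIP, against 2.59 for full-length L1PA2. In ORF2p RIP the summed changes were 2.93 and 2.94 in that order.

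**Figure D2:**
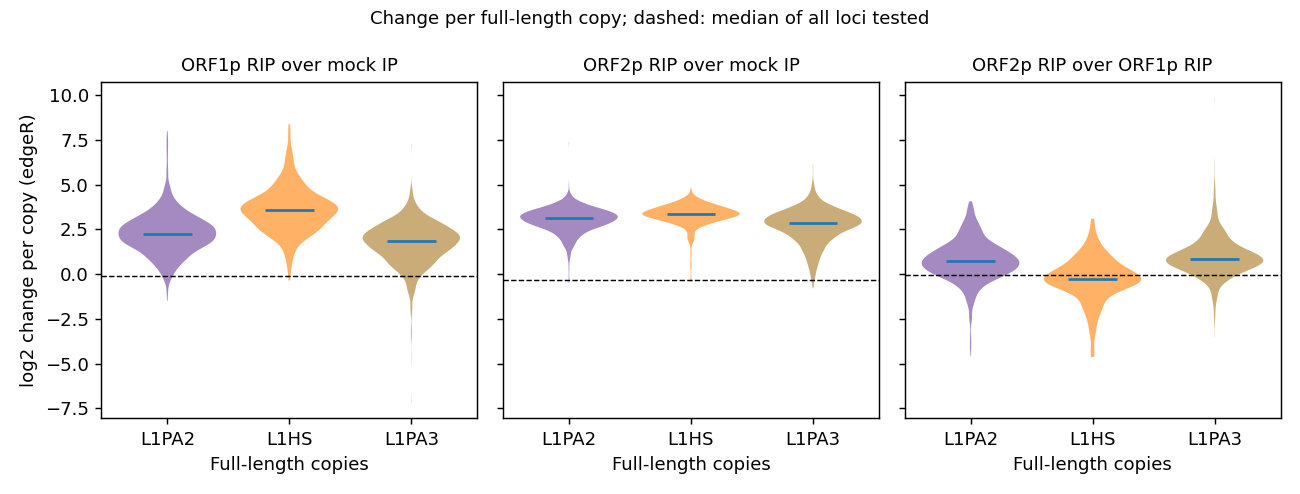
Distribution of the fitted log2 change per full-length copy of L1PA2, L1HS and L1PA3 in ORF1p RIP over mock IP, ORF2p RIP over mock IP and ORF2p RIP over ORF1p RIP; the width of each shape is the density of copies, the bar is the median, and the dashed line is the median of all loci tested. The L1PA2 median is 2.25 in ORF1p RIP over mock IP, between 3.57 for L1HS and 1.83 for L1PA3, and 3.10 in ORF2p RIP over mock IP.

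The ratio of reads between subfamilies within a library does not depend on how libraries are scaled. Full-length L1PA2 over full-length L1HS was 1.44, 1.45, 1.38 and 1.48 in ORF1p RIP, 3.0, 3.13, 3.15 and 3.07 in ORF2p RIP and 3.86, 3.77 and 3.75 in mock IP. Total RNA had 4.65, 4.72, 4.52, 4.56, 4.31 and 4.45. The 4 groups did not overlap: L1PA2 reads outnumbered L1HS reads least in ORF1p RIP and most in total RNA.

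Over full-length L1PA3 the order was the other way round. The ratio of L1PA2 to L1PA3 was 2.22, 2.17, 2.37 and 2.39 in ORF1p RIP and 1.24, 1.21, 1.17 and 1.22 in ORF2p RIP. It was 0.981, 0.983 and 0.980 in mock IP, and in total RNA it ran from 0.848 to 1.07 with a median of 1.02. Both RIPs were above mock IP and total RNA, and mock IP lay within the range of total RNA.

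The ratios were compared between groups by two-sided exact permutation, with p-values adjusted over 30 comparisons. Against total RNA both ratios differed in both RIPs (exact permutation p = 0.00952, the smallest that 4 against 6 libraries allow, adjusted p = 0.0317). The log2 differences from total RNA for L1PA2 over L1HS were -1.66 in ORF1p RIP and -0.55 in ORF2p RIP, and for L1PA2 over L1PA3 they were 1.24 in ORF1p RIP and 0.32 in ORF2p RIP. Against mock IP no exact permutation p can fall under 0.0571, the value that all 4 of these differences had, and their adjusted p was 0.0659. The log2 differences from mock IP were -1.40 and 1.22 in ORF1p RIP and -0.30 and 0.30 in ORF2p RIP, over L1HS and over L1PA3 in that order. Between ORF2p RIP and ORF1p RIP the differences were 1.10 over L1HS and -0.92 over L1PA3 (exact permutation p = 0.0286, the smallest that 4 against 4 allow, adjusted p = 0.0536).

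With the total RNA libraries tagged bl alone, no difference from total RNA could pass after adjustment, although the groups kept apart in both RIPs and the differences moved little: -1.63 and 1.15 in ORF1p RIP and -0.53 and 0.23 in ORF2p RIP. Leaving out 1 library of either group compared likewise raised the adjusted p of these differences above the threshold, to 0.0529 or 0.0595 (exact permutation).

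**Figure D3:**
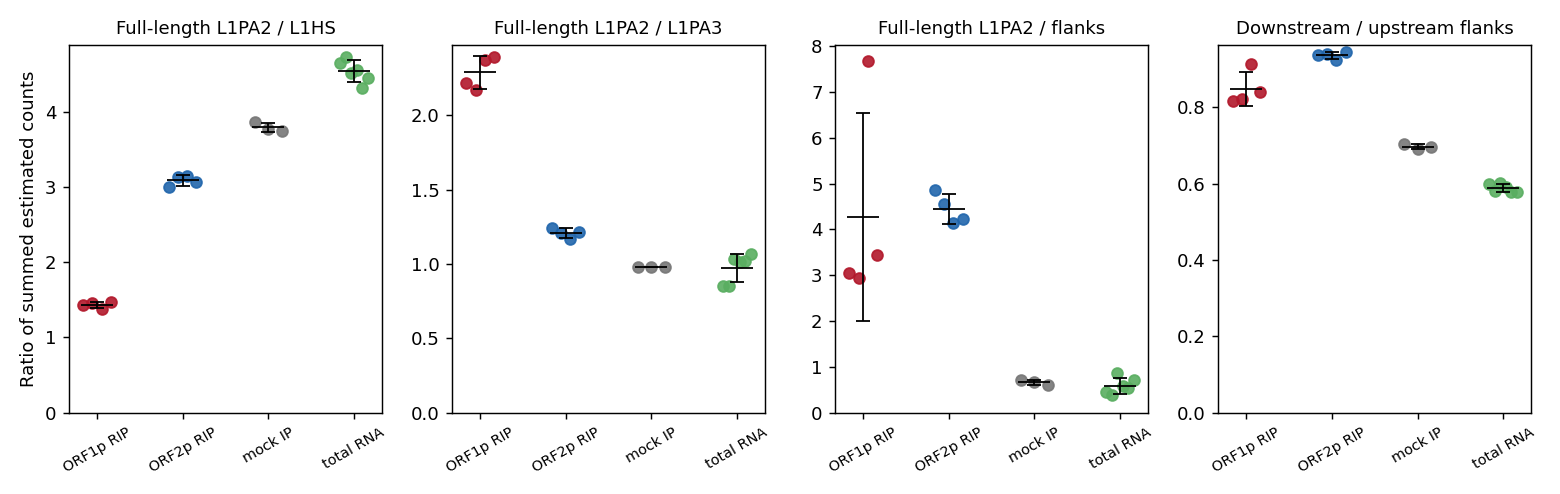
Ratios of summed estimated counts per library (linear axes from 0): full-length L1PA2 over full-length L1HS, over full-length L1PA3 and over flanking repeats, and repeats downstream over repeats upstream of the copies; points are libraries of the ORF1p RIP, the ORF2p RIP, the mock IP and total RNA, and bars are means with SD. L1PA2 over L1HS is 1.38 to 1.48 in ORF1p RIP and 4.31 to 4.72 in total RNA, and L1PA2 over L1PA3 is 2.17 to 2.39 in ORF1p RIP and 0.848 to 1.07 in total RNA.

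Full-length copies also took more reads relative to truncated ones in ORF1p RIP. The ratio of full-length to truncated L1PA2 reads was 4.07, 3.95, 4.69 and 4.56 in ORF1p RIP, 3.39, 3.14, 3.0 and 3.29 in ORF2p RIP and 2.56, 2.34 and 2.48 in mock IP, and 2.83 to 3.46 with a median of 3.08 in total RNA. ORF1p RIP was above all other groups, ORF2p RIP was above mock IP, and ORF2p RIP overlapped total RNA. The log2 difference from total RNA was 0.47 in ORF1p RIP (exact permutation p = 0.00952, adjusted p = 0.0317) and 0.04 in ORF2p RIP (exact permutation p = 0.581). The difference from mock IP was 0.81 in ORF1p RIP and 0.38 in ORF2p RIP, both at the smallest p the design allows.

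A copy can be read from its own promoter or as part of a longer transcript, and repeats on both sides of the copies show how much RNA was read around them. Within 10 kb of the copies lay 25279 flanking repeat loci, with all L1HS and L1PA loci left out of the flanks. The ratio of reads on the copies to reads on these flanks was 3.05, 2.94, 7.67 and 3.45 in ORF1p RIP and 4.87, 4.55, 4.13 and 4.24 in ORF2p RIP. It was 0.725, 0.660 and 0.607 in mock IP and 0.385 to 0.862 with a median of 0.569 in total RNA. Both RIPs had several times more reads on the copies than on these flanks, and mock IP and total RNA had fewer on the copies than on the flanks.

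The log2 difference of that ratio from mock IP was 2.57 in ORF1p RIP and 2.74 in ORF2p RIP (exact permutation p = 0.0571 each, the smallest possible). From total RNA it was 2.78 in ORF1p RIP and 2.96 in ORF2p RIP (exact permutation p = 0.00952, adjusted p = 0.0317). ORF2p RIP and ORF1p RIP overlapped (log2 difference 0.18, exact permutation p = 0.686). Without ORF1p RIP replicate 3, which had the highest ratio, the ORF1p RIP difference was 2.24 from mock IP and 2.46 from total RNA. Every ORF2p RIP library was then above every ORF1p RIP library, and the group means of the log2 ratio differed by 0.50 (exact permutation, adjusted p = 0.0779). The ratio of reads downstream to reads upstream of the copies, taken along the strand of each copy, averaged 0.847 ± 0.0449 in ORF1p RIP, 0.936 ± 0.00859 in ORF2p RIP, 0.696 ± 0.00665 in mock IP and 0.587 ± 0.0104 in total RNA. The 4 groups did not overlap in it; the differences from total RNA were 0.53 in ORF1p RIP and 0.67 in ORF2p RIP (exact permutation p = 0.00952, adjusted p = 0.0317).

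Taken copy by copy, the same held for 766 copies with at least 100 flank reads. In ORF1p RIP over mock IP the median log2 change was 2.10 at the copies and -0.64 at their flanks, and the copy's change was above its flank's in 729 of 766. In ORF2p RIP over mock IP the medians were 3.02 at the copies and 0.08 at the flanks, with 759 of 766 copies above their flanks. In ORF2p RIP over ORF1p RIP copies and flanks had medians of 0.74 and 0.94, with 376 of 766 copies above their flanks. Flank changes used a pseudocount of 0.5 CPM, which draws them toward 0 where flank reads are few. Changes at the copies came from the edgeR fit without that pseudocount, so the 2 measures are not alike.

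The RIPs also differed in how evenly the reads were spread over the copies. In ORF1p RIP the leading 10 copies of a library held 20.6% to 22.8% of the reads on all copies. They held 5.62% to 6.10% in ORF2p RIP, 5.90% to 6.17% in mock IP and 5.74% to 7.28% in total RNA. The number of copies that together held 50% of the reads was 98 to 119 in ORF1p RIP, 215 to 224 in ORF2p RIP, 227 to 229 in mock IP and 214 to 239 in total RNA. ORF1p RIP replicate 3, which had the highest summed level, lay within these ORF1p RIP ranges.

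**Figure D4:**
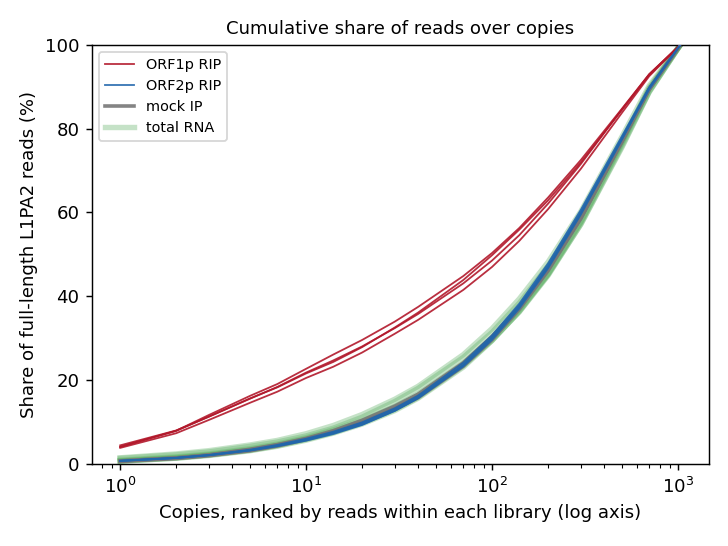
Share of all reads on full-length L1PA2 copies (percent) held by the leading copies, ranked within each library (log axis), with 1 line for each library of the ORF1p RIP, the ORF2p RIP, the mock IP and total RNA. The ORF1p RIP lines rise first, with 20.6% to 22.8% in the leading 10 copies, while the lines of the other 3 groups run together at 5.62% to 7.28%.

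By mean level over the libraries of a group, the median copy had 13.6 CPM in ORF1p RIP, 23.7 CPM in ORF2p RIP, 3.01 CPM in mock IP and 3.43 CPM in total RNA. A mean of 100 CPM or more was reached by 30 copies in ORF1p RIP, 31 in ORF2p RIP, 0 in mock IP and 0 in total RNA. Without ORF1p RIP replicate 3 the median copy had 9.33 CPM in ORF1p RIP, 18 copies reached 100 CPM and the highest copy had 750.1 CPM. With all libraries the highest copy had a mean of 1135 CPM in ORF1p RIP, 274 CPM in ORF2p RIP, 28.6 CPM in mock IP and 33.4 CPM in total RNA. ORF2p RIP thus had the higher median copy, and ORF1p RIP the higher leading copy. Copies on chromosome Y were counted in every total and left out of the copies named here.

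The copy with the highest level lies at chr16:61801456-61807489 (hg38), inside CDH8, a cadherin gene, and on the strand opposite to it. It had 724, 668, 2292 and 858 CPM in ORF1p RIP, 84.8, 76.8, 71.1 and 69.0 CPM in ORF2p RIP and 7.89, 6.63 and 4.12 CPM in mock IP, and in total RNA 1.93 to 13 CPM with a median of 6.21. The groups ranked ORF1p RIP, ORF2p RIP, then mock IP and total RNA together, with no overlap between either RIP and the controls. The log2 change of ORF1p RIP over mock IP was 7.51 ± 0.70 (SE, edgeR adjusted p = 1.31e-09; 6.91 without ORF1p RIP replicate 3) and that of ORF2p RIP over mock IP 3.60 ± 0.58 (SE, edgeR adjusted p = 6.45e-05). In ORF2p RIP over ORF1p RIP it was -3.91 ± 0.52 (SE, edgeR adjusted p = 4.63e-07). The flanks of this copy averaged 40.4 CPM in ORF1p RIP, 6.77 CPM in ORF2p RIP and 5.11 CPM in mock IP.

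Both copies that followed lie on chromosome 8. The copy at chr8:74942647-74948678, in no gene span, had 672, 599, 1803 and 778 CPM in ORF1p RIP, 56.6, 56.0, 48.7 and 54.5 CPM in ORF2p RIP and 8.75, 6.63 and 3.97 CPM in mock IP. The copy at chr8:10932426-10938427, inside XKR6, a gene of the XK-related family, had 596, 543, 1673 and 769 CPM in ORF1p RIP, 58.9, 54.0, 47.6 and 46.5 CPM in ORF2p RIP and 6.10, 4.42 and 4.35 CPM in mock IP. At both copies every ORF1p RIP library was above every ORF2p RIP library, and every ORF2p RIP library above every mock IP library. Their log2 changes in ORF1p RIP over mock IP were 7.22 and 7.49, in ORF2p RIP over mock IP 3.06 and 3.38, and in ORF2p RIP over ORF1p RIP -4.16 and -4.11, and all passed the edgeR test. In ORF1p RIP over total RNA they were 7.85 at chr8:74942647-74948678 and 8.04 at chr8:10932426-10938427, and without ORF1p RIP replicate 3 they were 7.36 and 7.55. Around the XKR6 copy the flanks averaged 36.7 CPM in ORF1p RIP, 2.25 CPM in ORF2p RIP and 0.464 CPM in mock IP, so reads around it also differed between the groups.

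The next leading copies were of this kind. The copy at chr20:8595102-8601127 inside PLCB1, a phospholipase C gene, averaged 663 ± 465 CPM in ORF1p RIP (433 ± 74.7 CPM without replicate 3), 121 ± 9.89 CPM in ORF2p RIP and 9.51 ± 0.592 CPM in mock IP. The copy at chr14:26673316-26679374 in NOVA1-DT, a noncoding transcript that diverges from NOVA1, averaged 489 ± 254 CPM in ORF1p RIP, 85.4 ± 9.64 CPM in ORF2p RIP and 7.51 ± 1.25 CPM in mock IP. The copy at chr12:64287350-64293377 in C12orf56, on the strand of that gene, averaged 351 ± 185 CPM in ORF1p RIP, 55.0 ± 7.27 CPM in ORF2p RIP and 3.50 ± 2.18 CPM in mock IP. All were higher in both RIPs than in mock IP, and lower in ORF2p RIP than in ORF1p RIP, with log2 changes of ORF2p RIP over ORF1p RIP of -2.46, -2.52 and -2.67 that passed the edgeR test.

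The remaining leading copies had the opposite order of the RIPs. The copy at chr4:11235218-11241254, in no gene span, had 96.7, 102, 124 and 123 CPM in ORF1p RIP, 306, 280, 254 and 256 CPM in ORF2p RIP and 31.7, 27.6 and 25.8 CPM in mock IP. Its flanks averaged 1.06 CPM in ORF1p RIP, 133 CPM in ORF2p RIP, 20.4 CPM in mock IP and 21.5 CPM in total RNA, so reads around this copy were high in ORF2p RIP too. The copy at chr15:56134619-56140628 in RFX7, a transcription factor gene, had 85.7, 77.2, 196 and 79.7 CPM in ORF1p RIP, 236, 256, 198 and 215 CPM in ORF2p RIP and 31.7, 27.8 and 26.2 CPM in mock IP. All its ORF2p RIP libraries were above its ORF1p RIP libraries, with replicate 3 of ORF1p RIP just under the lowest of them. The log2 changes of ORF2p RIP over ORF1p RIP were 1.30 ± 0.38 (SE, edgeR adjusted p = 0.00545) at chr4:11235218-11241254 and 1.05 ± 0.43 (SE, edgeR adjusted p = 0.0398) at the RFX7 copy.

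**Figure D5:**
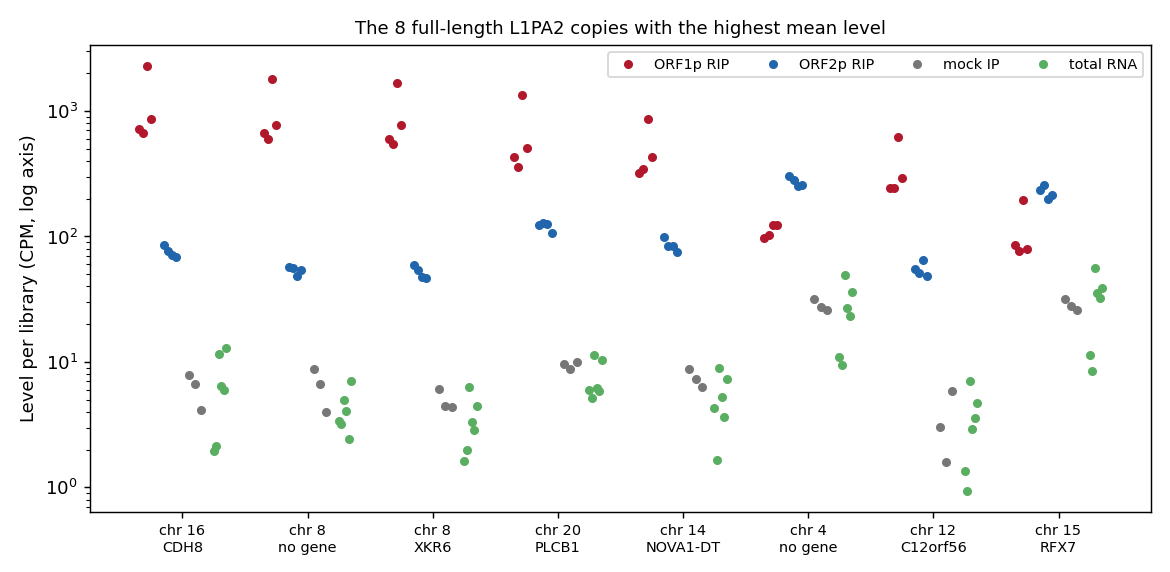
Level (CPM, log axis) of the 8 full-length L1PA2 copies with the highest mean level in each library of the ORF1p RIP, the ORF2p RIP, the mock IP and total RNA; copies are labelled by chromosome and the gene whose span they touch. In 6 copies the ORF1p RIP libraries lie above the ORF2p RIP libraries (668 to 2292 CPM against 69.0 to 84.8 CPM at the CDH8 copy), and in the chromosome 4 and RFX7 copies below them.

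Of all copies, 370 were higher and 46 lower in ORF2p RIP than in ORF1p RIP, while 28% of all loci tested were higher and 25.7% lower. Without ORF1p RIP replicate 3, 616 were higher and 27 lower, while 27.35% of all loci tested were higher and 24.97% lower. Both counts of copies thus rest in part on that library. The 46 lower copies held 31.2% of the copies' mean CPM in ORF1p RIP and 4.04% in ORF2p RIP. The call that chose them used these same libraries, so a higher share in ORF1p RIP follows from the choice. These 46 copies held 5.04% in mock IP and 4.64% in total RNA, which the contrast did not use. Their median divergence value was 17.5, and 65.2% touched a gene span. The 370 higher copies held 17.7% in ORF1p RIP and 50% in ORF2p RIP, an order that likewise follows from the choice. They held 42.9% in mock IP and 43.6% in total RNA, with a median divergence value of 25 and 43.8% in gene spans.

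The largest difference toward ORF1p RIP among the named copies was at chr4:55619154-55625181, in NMU, the gene of the neuropeptide neuromedin U, and on the strand opposite to it. Its level was 245, 207, 586 and 284 CPM in ORF1p RIP, 13.5, 22.2, 9.67 and 9.61 CPM in ORF2p RIP, 2.16, 1.23 and 1.83 CPM in mock IP and 0.894 to 3.62 CPM with a median of 1.36 in total RNA. The log2 change of ORF2p RIP over ORF1p RIP was -4.59 ± 0.47 (SE, edgeR adjusted p = 5.09e-09; -4.15 without ORF1p RIP replicate 3), and ORF1p RIP over mock IP was 7.56 ± 0.62 (SE, edgeR adjusted p = 1.1e-10). Its flanks averaged 219 ± 93.0 CPM in ORF1p RIP, 2.58 ± 0.672 CPM in ORF2p RIP and 4.95 ± 1.14 CPM in mock IP, so the repeats around the NMU copy were high in ORF1p RIP as well.

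Some copies came down with ORF2p and were near the mock level in ORF1p RIP. The copy at chr4:140413343-140419363 in CLGN, the gene of the chaperone calmegin, had 1.81, 2.37, 4.68 and 3.46 CPM in ORF1p RIP, 58.5, 50.1, 44.5 and 52.6 CPM in ORF2p RIP and 3.88, 4.12 and 4.5 CPM in mock IP. Its ORF2p RIP libraries stood above all others, and its ORF1p RIP libraries overlapped the mock IP libraries. The log2 change was 4.07 ± 0.42 in ORF2p RIP over ORF1p RIP (SE, edgeR adjusted p = 5.7e-09) and -0.44 ± 0.41 in ORF1p RIP over mock IP (SE, edgeR adjusted p = 0.392). The flanks of the CLGN copy had the opposite order of the RIPs, with means of 13.4 CPM in ORF1p RIP, 3.59 CPM in ORF2p RIP, 0.934 CPM in mock IP and 2.04 CPM in total RNA.

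The copies at chr5:83457800-83463817, in no gene span, and chr7:104557651-104563706, in LHFPL3, had the same order. They averaged 4.48 ± 2.11 and 6.15 ± 4.55 CPM in ORF1p RIP (3.59 and 3.90 CPM without replicate 3), 70.5 ± 10.3 and 95.9 ± 9.15 CPM in ORF2p RIP, and 4.98 ± 1.0 and 8.27 ± 2.29 CPM in mock IP. ORF2p RIP over ORF1p RIP was 3.98 and 3.97 on the log2 scale, both passing the edgeR test, and ORF1p RIP over mock IP was -0.16 and -0.44, neither passing (edgeR adjusted p = 0.783 and 0.501). Around the chr5 copy the flanks were under 1 CPM in every group's mean, and around the LHFPL3 copy they averaged 0.22 CPM in ORF1p RIP, 2.43 CPM in ORF2p RIP, 2.21 CPM in mock IP and 1.83 CPM in total RNA.

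Outside chromosome Y, the largest changes in ORF2p RIP over mock IP were at copies with low mock levels. The copy at chr22:32294666-32300684 in SLC5A4, a gene of the sodium/glucose transporter family, had 8.53, 13.9, 41.7 and 7.96 CPM in ORF1p RIP, 20.5, 27.1, 14.8 and 20.8 CPM in ORF2p RIP and 0.678, 1.23 and 0 CPM in mock IP. Both RIPs stood above mock IP without overlap, and they overlapped each other. ORF2p RIP over mock IP was 4.97 ± 0.78 (SE, edgeR adjusted p = 4.17e-05). At chr8:95552233-95558265 in CFAP418-AS1 the level averaged 13.4 ± 3.57 CPM in ORF1p RIP, 27.8 ± 4.77 CPM in ORF2p RIP and 1.14 ± 0.0292 CPM in mock IP.

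At chr3:19855049-19861075, in no gene span, the ORF2p RIP libraries had 23.7, 24.7, 85.5 and 24.8 CPM and the mock IP libraries 0.863, 3.26 and 1.14 CPM, so replicate 3 of ORF2p RIP was far above the others. ORF2p RIP over mock IP was 4.48 there (edgeR adjusted p = 2.33e-05), and it ran from 3.81 to 5.31 when libraries were left out in turn. Over total RNA, the copies at chr11:55685639-55691665 and chr18:24710815-24716841, both in no gene span, were among the most changed in ORF2p RIP, with means of 52.5 ± 9.24 and 15.8 ± 2.84 CPM in ORF2p RIP against 2.22 ± 1.21 and 0.669 ± 0.321 CPM in total RNA. Their log2 changes were 4.57 at chr11:55685639-55691665 and 4.56 at chr18:24710815-24716841. The flanks of the chr11 copy held 0.33 reads in all libraries together.

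The divergence value in the locus name, which the rule did not use, went with the change in ORF1p RIP. The copies were divided into 344 with a value of 5 to 20, 395 with 21 to 26 and 291 with 27 to 102. In ORF1p RIP over mock IP the medians were 2.69, 2.01 and 2.08 from the low to the high group (2.15, 1.56 and 1.57 without ORF1p RIP replicate 3), and 92.7%, 81.8% and 79.4% of the copies were called higher. The medians in ORF2p RIP over mock IP were 3.18, 3.03 and 3.05, with 98.8%, 98.0% and 95.9% called higher. The copies of low divergence thus had the higher median in ORF1p RIP, and the 3 groups lay close together in ORF2p RIP.

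The low-divergence copies held 53.6% of the copies' mean CPM in ORF1p RIP, 36.9% in ORF2p RIP, 34.3% in mock IP and 34.4% in total RNA. Across the 1030 copies, Spearman's rho between the divergence value and the log2 change was -0.24 in ORF1p RIP over mock IP, -0.10 in ORF2p RIP over mock IP and 0.21 in ORF2p RIP over ORF1p RIP. Copies share libraries and reads, so these are descriptions with no test. More similar copies also share more of their reads, and the part of that sharing in these values was not tested.

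Copies in and outside gene spans had close medians. In ORF1p RIP over mock IP the median log2 change was 2.21 for copies in or across a gene span and 2.29 for those outside, with 84.7% and 84.8% called higher. For ORF2p RIP they were 3.02 in genes and 3.19 outside. Copies on the strand of their gene had medians of 2.22 in ORF1p RIP and 2.92 in ORF2p RIP, and those on the opposite strand 2.20 in ORF1p RIP and 3.07 in ORF2p RIP, both over mock IP. Their median levels in total RNA were 4.5 CPM on the gene's strand and 3.53 CPM on the opposite strand.

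Copies with many reads in their flanks had lower median changes. Divided into 3 groups by flank reads, the 344 copies with the fewest had a median log2 change of 2.57 in ORF1p RIP over mock IP and 3.28 in ORF2p RIP over mock IP. The 344 copies with the most had medians of 1.89 in ORF1p RIP and 2.76 in ORF2p RIP. Their median levels in mock IP were 1.93 CPM with the fewest flank reads and 4.44 CPM with the most.

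Loci next to the length limit had levels of the same order. Just over it, the copy of 5904 bases at chr19:24394040-24399943 averaged 10.9 CPM in ORF1p RIP, 13.9 CPM in ORF2p RIP and 1.67 CPM in mock IP, and the copy of 5919 bases at chr10:56186333-56192251 averaged 30.7, 19.0 and 1.08 CPM in the same groups. Just under it, the locus of 5898 bases at chr19:29459291-29465188 averaged 10.3 CPM in ORF1p RIP, 10.6 CPM in ORF2p RIP and 1.28 CPM in mock IP, and the locus of 5893 bases at chr2:133546866-133552758 averaged 23.9, 33.7 and 2.52 CPM. The longest copies, of 7806 bases at chr6:71138559-71146364 and of 8071 bases at chr4:170355935-170364005 in LINC02512, averaged 7.22 and 24.2 CPM in ORF1p RIP, 7.65 and 21.7 CPM in ORF2p RIP and 0.679 and 2.52 CPM in mock IP. Their ORF1p RIP means without replicate 3 were 4.89 and 8.49 CPM.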

How the data were processed

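The authors deposited 1 table of estimated counts per repeat locus; that unit was read from the values. The submitters' processing notes name STAR and hg38 without versions; the counting program is not given in the sources used. Of 60 value columns, 17 matched labelled samples and 43 were not used. Library preparation, per the labels' protocols, used the Trio RNA-seq kit with probes against human ribosomal RNA and DNase before cDNA synthesis. Locus starts count from 0 in the table (658745 adjacent loci start at the previous end) and are given here from 1.

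Counts were rounded, loci were filtered with filterByExpr (min.count 10), and edgeR 4.0.16 (R 4.3.3) fitted the 17 libraries by group. TMM factors came from sums per subfamily, with full-length L1HS, L1PA2 and L1PA3 as rows of their own. Benjamini-Hochberg adjustment ran over 381712 loci, or over 1077 subfamily rows for sums. SE is the log2 change over the root of its F. Ratios were compared with exact permutation tests (scipy 1.17.1), adjusted over 30. Code was tested on simulated data. DESeq2 1.42.0 was an alternative, besides other scalings, filters, the limit of 6000 bases, flanks of 5 kb, a replicate block and left-out libraries.

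Named copies were the 8 with the highest mean CPM over the 4 group means. To these were added, per comparison, the 3 higher and 3 lower with the largest change among copies that had libraries without overlap, 1 CPM or more in a group and an adjusted p under 0.05. The 2 loci on each side of the length limit and the 2 longest copies completed the list. The copies, lists and tests were chosen with earlier results of these data known. Sequences of the copies are not used here.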

Additional observations from a re-analysis of the deposited data

Results flagged for a closer look

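Of 87 sets of 4 to 6 libraries examined, 14 held a library whose gap to its nearest neighbour was large for the range of the set, where chance gives about 1 in 20 (5%). In 13 of them the library was ORF1p RIP replicate 3, so they are not separate findings. Its summed level of the full-length L1PA2 copies was 50845 CPM, against 20485 CPM in the next ORF1p RIP library, and its ratio of copy reads to flank reads was 7.67, against 3.45. It was the high library at the copies chr16:61801456-61807489 (2292 CPM), chr8:74942647-74948678 (1803 CPM), chr20:8595102-8601127 (1355 CPM), chr12:64287350-64293377 (626 CPM) and chr15:56134619-56140628 (196 CPM). It was likewise the high library at chr3:19855049-19861075 (14.9 CPM), chr19:24394040-24399943 (20.8 CPM), chr10:56186333-56192251 (57.5 CPM) and chr6:71138559-71146364 (14.2 CPM). The widest gaps in ORF1p RIP, relative to the range, were at chr11:55685639-55691665, with 244 CPM in replicate 3 and 31.8 CPM in the next library, and at chr4:170355935-170364005, with 71.2 CPM and 9.80 CPM. The other library was ORF2p RIP replicate 3, with 85.5 CPM at chr3:19855049-19861075 against 24.8 CPM in the next ORF2p RIP library.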

How the results depend on the processing

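Among results that answer a comparison, 168 values under another setting kept their direction and call. Of the others, 13 were counts of called copies that became larger, 9 were ratios that no longer passed the test, and 5 turned sign. Mock IP over total RNA turned: the summed log2 change of -0.12 became 0.16 with a replicate block and 0.82 with the total RNA libraries tagged b alone, and ran from -0.26 to 0.079 with libraries left out. Copies lower in ORF1p RIP than in mock IP were 3 with library totals, 2 with the replicate block, 2 with min.count 30 and 2 with DESeq2 (min.count 100), and 1 to 5 with libraries left out. Copies lower than in total RNA were, for ORF1p RIP, 7 with the bl libraries alone and 2 to 10 with libraries left out, and, for ORF2p RIP, 1 with library totals and 1 with the bl libraries alone. Copies that differed between mock IP and total RNA were 1 higher with min.count 30, 8 higher and 89 lower with bl, 14 higher with b, 4 higher and 6 lower with DESeq2, and 0 to 1 higher and 0 to 3 lower with libraries left out. ORF2p RIP over ORF1p RIP had 285 to 616 higher and 27 to 56 lower with libraries left out, the extremes of 616 and 27 without ORF1p RIP replicate 3. The share of all loci called was taken only for the main fit and the fit without ORF1p RIP replicate 3. The cause was not tested for any of these changes.

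With bl alone, the ratios that had differed from total RNA in the RIPs were at the smallest p that 4 against 4 allow, which does not pass after adjustment (0.0635). For ORF1p RIP they were 0.40 (full-length over truncated), -1.63 (over L1HS), 1.15 (over L1PA3), 2.55 (over flanks) and 0.53 (downstream over upstream), and for ORF2p RIP -0.53, 0.23, 2.73 and 0.68 for all but the first, which turned to -0.023. For mock IP the ratio over L1PA3 turned to -0.074 and that over flanks to -0.013. With 1 library of either group left out, the adjusted p of these RIP ratios was 0.0529 or 0.0595 (exact permutation), above the threshold. For ORF1p RIP the values then ran from 0.43 to 0.51, -1.67 to -1.64, 1.20 to 1.27, 2.46 to 2.92 and 0.49 to 0.55. For ORF2p RIP they ran from -0.57 to -0.54, 0.28 to 0.35, 2.85 to 3.08 and 0.67 to 0.68 for the last 4 ratios. The L1PA3 ratio of mock IP ran from -0.020 to 0.046, below 0 without total RNA replicate 1 or 2. Matched by the replicate number of their titles, 12 of 21 pairs of libraries had a correlation over 0.1. The correlations of all pairs ran from -0.50 to 0.50, and the replicate block turned no result but the one above. The descriptions of total RNA carry other numbers than the titles, and a match by those was not tested, so whether libraries are paired is not known. A copy at low counts is limited by depth, and all copies by reads shared with relatives.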

Other observations

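The gene spans of RefSeq (GRCh38.p14) also have edges inside the copies. In all, 40 spans began or ended in 39 copies, and 34 of them ran out past the copy's 5′ end, so that part of the gene lay in the copy and the rest upstream of it. Of these 34, 31 were long noncoding RNA genes, and the protein-coding ones were SLCO1A2, an organic anion transporter gene, SEMA3D, a semaphorin gene, and GRHL2, a transcription factor gene. The edge lay within 600 bases of the copy's 5′ end in 30 of the 34 and between 350 and 600 bases in 27, with a median of 475 bases. The L1 5′ untranslated region is known to hold an antisense promoter as well as the sense promoter. These positions come from the annotation alone, and the strand of the genes was not used for them. Whether a gene began or ended in a copy was therefore not determined, and no expression of these genes was measured here.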
